A study of Mus musculus with 10 samples.

Results

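Gene expression in quadriceps muscle was compared between BALB/cOlaHsd (BALB) and C57Bl/6JOlaHsd (BL6), inbred mouse strains kept as wild-type stocks. The animals were males killed at 8 weeks of age, with 2 animals per strain, and every hybridisation paired RNA of one strain in Cy5 with RNA of a second strain in Cy3. The comparison was defined by the arrays that join the strains: 4 of the 10 arrays deposited carry it, and 8 of the 10 entered the fit across all strains. The other animals were of DBA/2OlaHsd (DBA), C57Bl/10ScSnOlaHsd (BL10) and CBA/CaOlaHsd (CBA), untreated and of the same age and sex.

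BALB and BL6 were measured against each other in 2 ways, with different animals. In the first, the direct estimate, BALB 2 was hybridised with BL6 2 on a single array. In the second, the chain estimate, BL6 1 was set against DBA 2 on one array and DBA 2 against BALB 1 on another, so that DBA 2 links the other BALB animal to the other BL6 animal. The gene-wise dye effect, by which an oligonucleotide gives more signal in Cy5 than in Cy3 whatever the sample, was taken as the mean of the arrays BL6 1 over DBA 2 and DBA 1 over BL6 1 and subtracted once from each array. Values are log2 ratios of BALB over BL6 unless stated otherwise, so that 1 is a doubling in BALB. Both deposited values for a spot pair were averaged, and the median of every array was set to 0.

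A skeletal muscle fibre is filled with myofibrils, in which thin filaments of actin slide along thick filaments of myosin. The Z-disc anchors the thin filaments, the M-band holds the thick filaments in register, and calcium released from the sarcoplasmic reticulum starts contraction, while the ATP comes from glycolysis and from the mitochondrial respiratory chain. Quadriceps of the mouse is mainly a fast muscle, and it also holds fat cells, vessels, nerve and connective tissue. Ratios within an array hold no expression level, so the presence of muscle or of other cell types could not be checked from marker levels here. In RNA from whole muscle, fewer cells of a type and less RNA per cell cannot be told apart.

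By algebra the chain estimate equals the ratio DBA 1 over BL6 1 minus the ratio DBA 2 over BALB 1, because the array of BL6 1 against DBA 2 also defines the dye effect and cancels. The array of DBA 1 against BL6 1 entered the chain with a weight of 1 and the direct estimate with a weight of -0.5, so the estimates use different BALB and BL6 animals but are not independent. Any difference between the 2 DBA animals also enters both, with opposite signs. With equal and independent noise on the arrays, no strain difference and this dye effect, the estimates would correlate at r = -0.289.

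Across the 7697 features tested (oligonucleotide spots, of which 6752 had a gene name) the direct and the chain estimate correlated at Pearson r = 0.0147 and Spearman rho = -0.0226, given as a description because features share the arrays. The signs were the same for 3829 features, which is 49.7%. Of these 1654 were higher in BALB and 2175 were lower. The chain estimates spread more widely, with an SD of 0.64 against 0.33 for the direct estimates. The duplicate spots of a feature correlated at r = 0.705 in the chain estimate and at 0.239 in the direct estimate. The higher r goes with the wider spread of the chain, not with closer spots. Spots lay more than 1 apart in 6.33% of features in the chain and in 6.03% in the direct estimate. The relation of the animal pairs depended on the dye effect subtracted. With the mean of the 8 arrays as the dye effect r was 0.475, with that from a smaller closed loop of arrays 0.241 and with that from a larger loop 0.347. The share of features with the same sign was 66.6%, 56.9% and 61.7%. Strain differences cancel round a closed loop only if its arrays are labelled correctly. Each loop holds an array whose values are identical to those of a differently labelled array, so strain differences fail to cancel in at least 1 loop.

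Large differences that both animal pairs showed in the same direction were one-sided. A difference of at least 2-fold in both estimates was found for 10 features that were higher in BALB, which is 0.13% of those tested, and for 0 that were lower, which is 0%. With the 3 other dye effects 29, 19 and 21 features were higher by that size and 0, 2 and 0 lower, and with the first or the second spot alone 28 and 23 were higher and 1 and 2 lower. Opposite differences of that size were found for 8 features, 3 of them higher and 5 lower in the direct estimate. At a log2 size of 0.5 in both estimates, 179 features were higher and 25 lower in BALB, while 102 and 105 features had opposite signs. The 10 features were the X70032 and the U58108 features of Neb, together with Slc25a4, Tpt1, Apobec2, Atp5md, Dnaja2, Tnnt3, Ndufa4 and Shkbp1.

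**Figure D1:**
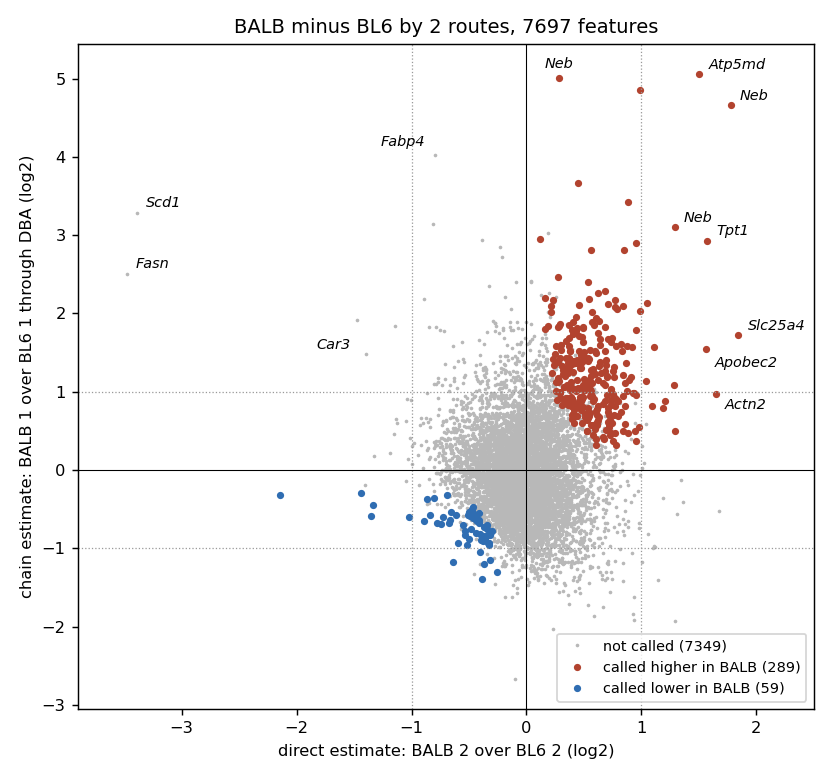
Direct estimate (BALB 2 over BL6 2, x axis, log2) against chain estimate (BALB 1 over BL6 1 through DBA, y axis, log2) for 7697 features, with dotted lines at 2-fold. Red points are the 289 features called higher in BALB by the fit of 8 arrays and blue points the 59 called lower, and Scd1, Fasn, Car3 and Fabp4 lie on the left with a positive chain estimate.

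A linear model of 8 arrays (limma, with strain and gene-wise dye terms and the animal as the replicate) gave a single value of BALB minus BL6 with its SE. At a false discovery rate of 10% it called 348 of 7697 features, which is 4.52%. Of these, 289 (3.75%) were higher and 59 (0.767%) were lower in BALB, so that 83.0% of the calls were higher. All 348 had the same sign in the direct and the chain estimate, which the fit partly fixes since it uses those arrays. The called features that were higher had a median log2 difference of 0.77, with a range of 0.48 to 2.94, and 61 of them reached 2-fold. The called features that were lower had a median size of 0.58 and a single feature past 2-fold. The least significant feature called had an adjusted p of 0.0998, and the next had 0.101.

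The count of calls rested on single animals and on the treatment of the arrays. Without BALB 1 the same model called 12 features, without BALB 2 it called 3615 (1695 higher and 1920 lower), without BL6 1 it called 1712 (915 and 797), without BL6 2 it called 243 (175 of them higher, against 289) and without DBA 1 it called 2814 (1314 and 1500). The 83.0% of calls that were higher thus became 46.9% without BALB 2, 53.4% without BL6 1 and 46.7% without DBA 1. The fits without BALB 2, BL6 1 and DBA 1 kept 1 residual degree of freedom, the difference between the arrays of CBA against BL10. Their residual spread thus came from no BALB, BL6 or DBA animal, and their counts and shares do not measure the strain difference. The animal to array variance ratio was estimated anew without BALB 1 (5.99e-07) and without BL6 2 (0.638), against 0.446 in the main fit. The first spot of each pair alone gave 3 calls, and limma gave 0 calls without a dye term (487 features at an unadjusted p under 0.05), with all 10 arrays as labelled (1106 features) and with an ordinary test that shares no spread between features (1145 features), against 1694 features at that unadjusted level in the fit reported.

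Among the 289 features called higher in BALB, BL6 had the lowest fitted value of the 5 strains in 207 and CBA in 80. BALB had the highest fitted value in 200, BL10 in 56 and CBA in 30. Both extremes together, BL6 lowest and BALB highest, were found for 123 features called, against 5.01% of all features tested. Among the 59 features called lower, BL6 was the highest strain in 44 and BALB the lowest in 34. The call itself favours such extremes, so these counts are a description of where the other strains lay.

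The strongest single case was nebulin (Neb, chromosome 2), the giant protein that runs along the thin filament and is thought to set its length. It is represented by 4 features, and all 4 were called. For the X70032 feature the centred ratios were 2.56 for BALB 2 over BL6 2, -1.23 for BL6 1 over DBA 2, -1.87 for DBA 2 over BALB 1 and 2.79 for DBA 1 over BL6 1. BL6 was thus the lower sample on each of these arrays that held it, and BALB the higher. The direct estimate was 1.78 (spots 1.73 and 1.85) and the chain estimate 4.66 (spots 4.73 and 4.57). The fit gave 2.94 with an SE of 0.38, or 7.66-fold (limma, adjusted p = 0.0293), and a combination of 3 arrays in which the dye effect and the DBA animal both cancel gave 2.74.

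The other Neb features were higher in BALB by 1.97 (SE 0.28, U58108), 2.65 (SE 0.47, AF203898) and 2.26 (SE 0.57, AF203899), with adjusted p of 0.0499, 0.0572 and 0.0895. Their chain estimates were 3.10, 4.86 and 5.001 and their direct estimates 1.29, 0.99 and 0.28. The chain estimate exceeded the direct one in each Neb feature, an order that turned for U58108 with the larger loop as the dye effect, at 2.02 direct and 1.64 chain. For AF203899 the direct spots were 1.02 and -0.43, and with the other dye effects its direct estimate was 1.37, 1.07 and 1.41. Without BALB 1 the calls of AF203898 and AF203899 were lost, with values of 1.60 and 0.86 (limma, adjusted p = 0.157 and 0.25).

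The smallest p of all features belonged to Apobec2 (chromosome 17), a member of the cytidine deaminase family that is expressed mainly in heart and skeletal muscle. Its ratio was 1.58 for BALB 2 over BL6 2, -0.72 for BL6 1 over DBA 2, -0.79 for DBA 2 over BALB 1 and 0.76 for DBA 1 over BL6 1. The steps from BL6 to DBA and from DBA to BALB were thus of similar size and add up to the direct ratio. The direct estimate was 1.56 and the chain estimate 1.55, with all 4 spot values between 1.44 and 1.64. The fit gave 1.56 (SE 0.15), or 2.94-fold, with an adjusted p of 0.021 in limma. Under the other dye estimates, the mean of the 8 arrays, the smaller loop of arrays and the larger loop, the direct estimate of Apobec2 was 1.60, 1.60 and 1.78 and the chain estimate 1.46, 1.47 and 1.11.

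Slc25a4 (chromosome 8) encodes the muscle form of the carrier that exchanges ADP for ATP across the inner mitochondrial membrane. BALB 2 over BL6 2 was 2.27 and DBA 1 over BL6 1 was 1.40, while BL6 1 over DBA 2 was -0.55 and DBA 2 over BALB 1 was -0.33. The direct estimate was 1.85 and the chain estimate 1.73, against 1.98 and 1.45 with the mean of the 8 arrays as the dye effect, 1.73 and 1.97 with the smaller loop and 2.20 and 1.01 with the larger loop. The fitted difference was 1.67 (SE 0.22), or 3.19-fold, with an adjusted p of 0.0293 (limma), and without BALB 1 it was 1.41 with an adjusted p of 0.121.

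Tpt1 (chromosome 14), the abundant translationally controlled tumour protein, was 2.08 higher in BALB (SE 0.25, 4.23-fold, limma adjusted p = 0.0293), with a direct estimate of 1.57 and a chain estimate of 2.93. Dnaja2, a co-chaperone of Hsp70, had a direct estimate of 1.11 from spots at 1.88 and 0.37 and a chain estimate of 1.57. Pkmyt1, a kinase that restrains entry into mitosis, likewise had unequal direct spots, 0.24 and 2.19, with a chain estimate of 0.88. Dnajc2, a chaperone at the ribosome, had direct spots of 1.45 and 0.31. These 3 are the features among the 10 most significant higher ones whose direct spots lay more than 1 apart. The remaining members of that group were Cops2, a subunit of the COP9 signalosome (direct 0.95, chain 0.96), and Tpm1, the alpha-tropomyosin gene (direct 0.84, chain 1.21). BL6 was the lowest of the 5 strains in 8 of these 10 features and BALB the highest in 8.

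**Figure D2:**
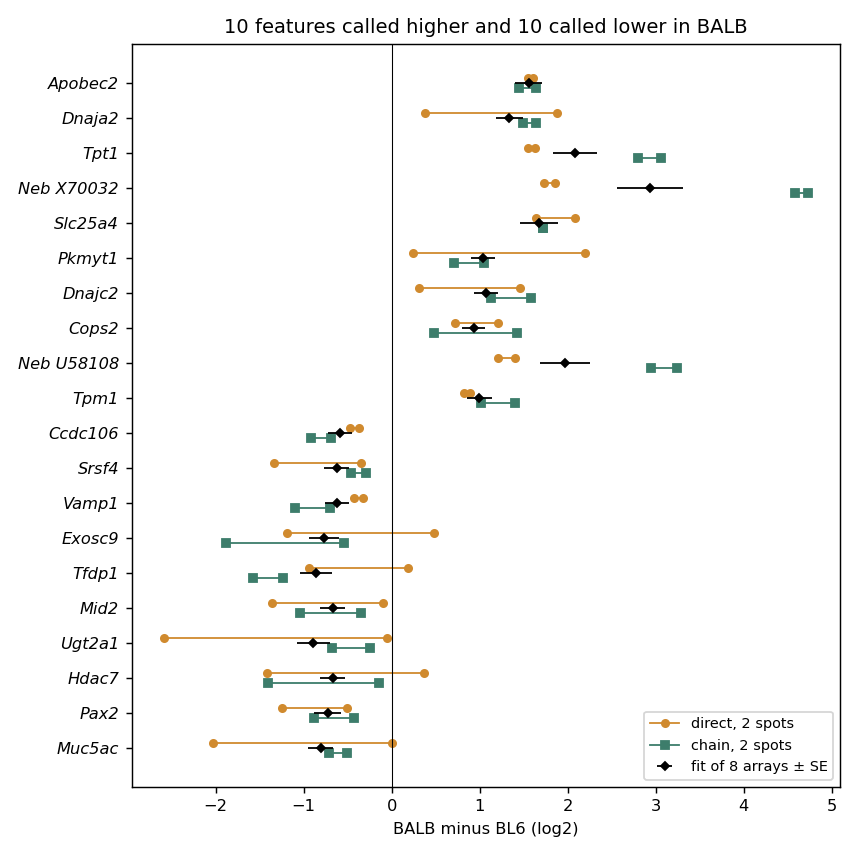
BALB minus BL6 (x axis, log2) for the 10 named features with the smallest p among those higher in BALB and the 10 among those lower, with orange circles for the 2 spots of the direct estimate, green squares for those of the chain and black diamonds for the fit of 8 arrays ± SE. The spots of Apobec2 lie between 1.44 and 1.64, whereas the direct spots of Ugt2a1 lie at -0.06 and -2.59.

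The features called lower in BALB had smaller differences. Their direct spots lay more than 1 apart in 28.8%, against 12.8% of those called higher, while their chain spots did so in 5.08% against 6.23%. The 10 with the smallest p were Muc5ac, Pax2, Hdac7, Ugt2a1, Mid2, Tfdp1, Exosc9, Vamp1, Srsf4 and Ccdc106, with fitted differences from -0.89 to -0.59 and adjusted p from 0.0572 to 0.0727 (limma). BALB was the lowest strain in 9 of them and BL6 the highest in 8. In 6 of the 10 the direct spots lay more than 1 apart, and in 9 the second spot was the lower. Muc5ac, a gel-forming mucin of airway and stomach, had direct spots of 0.01 and -2.03 around a fitted difference of -0.81 (SE 0.15). Ugt2a1, a glucuronosyltransferase of the olfactory epithelium, had direct spots of -0.06 and -2.59.

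Vamp1 and Ccdc106 were lower in BALB with closely matching spots. For Vamp1, a vesicle protein that serves transmitter release at the neuromuscular junction, the direct spots were -0.33 and -0.43 and the chain spots -0.71 and -1.09, and the fitted difference was -0.63 (SE 0.14, limma adjusted p = 0.0663). For Ccdc106 the direct spots were -0.47 and -0.37, the chain spots -0.70 and -0.92 and the fitted difference -0.59 (SE 0.13, limma adjusted p = 0.0727). Without BALB 1 both calls were lost, at -0.52 for Vamp1 and -0.49 for Ccdc106 (adjusted p = 0.198 and 0.203). A second Vamp1 feature was at -0.21 and not called, with 0.18 direct and -0.78 chain. Over all calls, direct spots of opposite sign occurred in 13 of the 59 lower features and in 26 of the 289 higher ones, against 39.4% of all features tested.

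Thin filament genes were called higher in 8 of 20 features and lower in 0, which is 40% against 3.75% of all features. By gene these were 5 of 17 (29.4%), since Neb counts 4 times, and without BALB 1 the list had 2 features called. The calls were the 4 Neb features, Tnnt3, Tpm1, Tmod1 and Acta1. Tnnt3, the fast troponin T, had ratios of 1.61 for BALB 2 over BL6 2, -0.41 for BL6 1 over DBA 2, -0.03 for DBA 2 over BALB 1 and 1.06 for DBA 1 over BL6 1. The estimates were alike, 1.29 direct and 1.09 chain, with a fitted difference of 1.14 (SE 0.19, limma adjusted p = 0.0572). The call of Tnnt3 was lost without BALB 1 (1.01, adjusted p = 0.186) and without BL6 2 (0.92, adjusted p = 0.113).

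Tmod1, tropomodulin 1, which caps the pointed end of the thin filament, was 0.99 higher in BALB (SE 0.18, 1.99-fold, limma adjusted p = 0.0572), with 0.69 in the direct and 1.41 in the chain estimate. Acta1, the skeletal actin gene, differed by 0.56 (SE 0.12, limma adjusted p = 0.0669), with 0.59 and 0.53. The calls of Tmod1 and Tpm1 were lost without BALB 1, with 0.73 and 0.85 and adjusted p of 0.19 and 0.15. Not every thin filament gene followed. Tpm2 and Tpm3, the other tropomyosins, were at -0.06 and -0.11, the inhibitory subunits Tnni1 and Tnni2 at -0.10 and -0.21, and the cardiac Tnnt2 at -0.39, none of them past the threshold. The list had 10 features higher and 4 lower in both estimates. Its median was 0.18 direct and 0.51 chain, against -0.03 and -0.05 over all features, but with the dye effect taken from the smaller loop the chain median was -0.03, and without the features whose spots disagreed the fitted median of the 14 that remained was -0.0048 in place of 0.29.

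**Figure D3:**
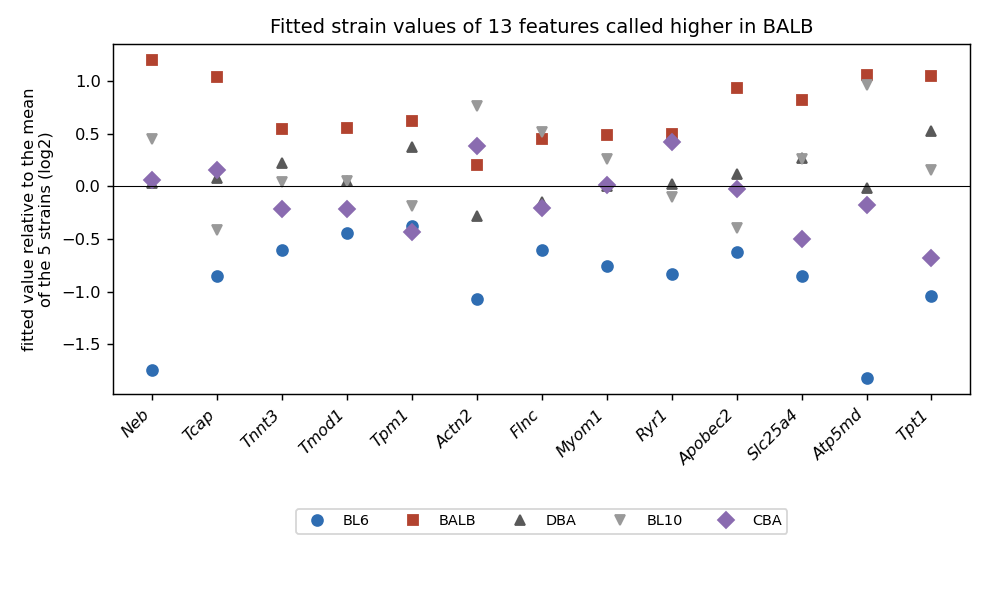
Fitted values of the 5 strains relative to their mean (y axis, log2) for 13 features called higher in BALB, among them X70032 of Neb, without error bars because only differences between strains were fitted with an SE. BL6 is the lowest strain in each but Tpm1, where CBA is lower, and BL10 lies above BALB for Actn2 and Flnc.

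In the Z-disc list 5 of 24 features were called higher and 0 lower, which is 20.8% against 3.75% of all features, and 0 were called without BALB 1. Tcap, telethonin, which ties titin to the Z-disc, was 1.88 higher (SE 0.35, 3.69-fold, limma adjusted p = 0.0579), with 0.88 direct and 3.42 chain, and without BALB 1 it was at 1.02 and not called (adjusted p = 0.146). Actn2, the alpha-actinin that crosslinks thin filaments, had ratios of 1.43 for BALB 2 over BL6 2, -0.83 for BL6 1 over DBA 2, -0.59 for DBA 2 over BALB 1 and 0.37 for DBA 1 over BL6 1. The direct estimate was 1.65 and the chain estimate 0.97, an order that turned with the mean of the 8 arrays as the dye effect (1.33 and 1.60) and with the smaller loop (0.78 and 2.70). Its fitted difference was 1.27 (SE 0.22, 2.41-fold, limma adjusted p = 0.0572), and BL10, not BALB, was the highest strain. The call was lost without BALB 1 (1.32, adjusted p = 0.153) and without BL6 2 (0.79, adjusted p = 0.123).

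Smpx, a small protein of the fibre's cytoskeleton, differed by 0.96 (0.94 direct, 0.98 chain), Flnc, filamin C, by 1.06 (0.78 and 1.59) and Pdlim5, an adaptor at the Z-disc, by 1.70 (0.45 and 3.66). Their adjusted p were 0.0572, 0.0572 and 0.091 in limma. Without BALB 1 Smpx and Flnc were at 0.91 and 0.70 and were not called (adjusted p = 0.157 for both), and without BL6 1 Smpx was at 0.89 (adjusted p = 0.15). Actn3, the alpha-actinin of fast fibres, was not called, at -0.13, with -0.63 direct and 0.52 chain. The muscle LIM protein Csrp3 was at -0.02. The list had 13 features higher and 3 lower in both estimates.

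At the M-band and the thick filament 2 of 6 features were called higher, Myom1 and Mybph, and 0 without BALB 1. Myom1, myomesin 1, which links neighbouring thick filaments, had ratios of 1.05 for BALB 2 over BL6 2, -0.44 for BL6 1 over DBA 2, -0.73 for DBA 2 over BALB 1 and 1.45 for DBA 1 over BL6 1. Its chain estimate, 2.18, exceeded the direct estimate, 0.55, whose spots were 0.95 and 0.17. The fitted difference was 1.25 (SE 0.23, 2.38-fold, limma adjusted p = 0.0572), and 0.78 with an adjusted p of 0.157 without BALB 1. Myom2, myomesin 2, was at -0.19 with 0.47 direct and -1.04 chain, and Ckm, muscle creatine kinase, was at 0.16, both not called. The calls made up 33.3% of this small list, against 3.75% of all features.

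Promoter sequences are shown for 4 called genes whose roles the results turn on, the muscle deaminase Apobec2, the Z-disc crosslinker Actn2, the capping protein Tmod1 and the M-band protein Myom1. Each runs from 250 bases before to 50 bases after the gene's start in RefSeq (GRCm38.p6), 5′ to 3′ on the gene's strand. Capitals mark the E-box CANNTG, which reads the same on both strands and is the site of myogenic helix-loop-helix factors, and, in Myom1 only, a CArG box, the site of serum response factor.
Apobec2, chr17:48432679-48432978, minus strand: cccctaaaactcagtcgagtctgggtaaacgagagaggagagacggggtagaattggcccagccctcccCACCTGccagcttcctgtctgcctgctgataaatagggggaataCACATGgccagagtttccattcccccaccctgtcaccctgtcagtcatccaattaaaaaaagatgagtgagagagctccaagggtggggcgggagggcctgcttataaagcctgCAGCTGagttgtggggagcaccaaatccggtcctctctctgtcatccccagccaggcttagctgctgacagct
Actn2, chr13:12340683-12340982, minus strand: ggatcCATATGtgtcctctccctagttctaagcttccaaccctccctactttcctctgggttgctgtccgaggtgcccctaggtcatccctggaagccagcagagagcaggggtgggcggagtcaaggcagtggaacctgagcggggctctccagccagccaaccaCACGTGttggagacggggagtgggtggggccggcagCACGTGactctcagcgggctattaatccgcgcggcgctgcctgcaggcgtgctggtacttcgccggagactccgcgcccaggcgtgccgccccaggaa
Tmod1, chr4:46038972-46039271, plus strand: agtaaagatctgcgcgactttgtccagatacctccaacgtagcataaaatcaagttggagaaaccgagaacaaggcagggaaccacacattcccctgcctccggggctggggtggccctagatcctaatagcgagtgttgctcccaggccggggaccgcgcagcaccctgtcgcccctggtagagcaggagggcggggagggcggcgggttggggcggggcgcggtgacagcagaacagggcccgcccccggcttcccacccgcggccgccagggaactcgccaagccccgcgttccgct
Myom1, chr17:71019307-71019606, plus strand: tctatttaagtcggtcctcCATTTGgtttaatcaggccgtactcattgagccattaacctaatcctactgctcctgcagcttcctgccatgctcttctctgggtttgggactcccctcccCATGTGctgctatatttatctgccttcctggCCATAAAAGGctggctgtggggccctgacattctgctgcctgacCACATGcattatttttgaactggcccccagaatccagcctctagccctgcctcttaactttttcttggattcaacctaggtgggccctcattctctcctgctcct

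The windows of Apobec2, Actn2 and Myom1 held 3 E-boxes each, and that of Tmod1 held 0. The CArG box was found once in Myom1, and the motif of MEF2, a site for factors such as Mef2c, was found in none of the 4. These counts are a description of the letters. Of 32851 mouse promoters of this length 72.3% held an E-box, 3.19% a MEF2 site and 1.63% a CArG box. Among the 259 promoters of 213 genes called higher in BALB the shares were 60.6%, 3.09% and 1.54%.

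Of the calcium handling features, 5 of 26 were called higher (19.2%, against 3.75% of all features) and 0 lower, and without BALB 1 none of the 26 was called. Ryr1, the calcium release channel of the sarcoplasmic reticulum, was called in 1 of its 3 features, with 1.32 (SE 0.25, limma adjusted p = 0.0579), 0.54 direct and 2.40 chain, and it was at 0.79 without BALB 1 (adjusted p = 0.157). The other Ryr1 features were at 0.77 (adjusted p = 0.101) and 0.26. Camk2d, a calcium-dependent kinase, was 1.22 higher and Hrc, a calcium-binding protein of the reticulum, 1.38 higher, the latter with a direct estimate of only 0.12. Jph1, which holds the reticulum to the transverse tubule, and Cacng1, a subunit of the tubule's calcium channel, were higher by 0.88 and 0.62. The calcium pumps Atp2a1 and Atp2a2 were at 0.36 and -0.22 and were not called.

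The dystrophin complex list had 3 calls of 24 features (12.5%), all higher and all sarcoglycans, and 0 without BALB 1. Of all features 3.75% were called higher. Sgcd was 0.70 higher, Sgce 0.77 and Sgca 0.58, with adjusted p of 0.0572, 0.0876 and 0.0977 (limma). Dystrophin itself (Dmd) was at 0.34 and 0.03 in its 2 features. Dysf, dysferlin, a protein of membrane repair, was at 0.50 (adjusted p = 0.19) with direct spots of 0.63 and -0.45. Rdx, radixin, which links actin to the membrane, was at 1.03 (adjusted p = 0.122), with a chain estimate of 2.41 and a direct estimate of 0.04. With the 3 other dye effects the Rdx estimates lay close together, from 0.74 to 0.78 direct and from 0.93 to 1.01 chain. Thbs4 and Cstb, a matrix protein and a protease inhibitor, were at -0.05 and -0.16.

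Of 8 features of fast fibres 1 was called higher (12.5%, against 3.75% of all features), Tnnt3, and of 8 features of slow fibres 0 were called by limma (2 at an unadjusted p under 0.05). Tnnc2, the fast troponin C, was at 1.03 (adjusted p = 0.103) from a chain estimate of 2.23 and a direct estimate of 0.13. Pvalb, the calcium buffer parvalbumin, was at 0.37, and Mb, myoglobin, at -0.28.

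Respiratory chain and ATP synthase genes were mostly higher in BALB in both animal pairs. Of 30 features 19 were higher and 2 lower in both estimates, against 21.5% and 28.3% of all features. The list's medians were 0.16 direct, 0.76 chain and 0.39 in the fit, and with the 3 other dye estimates the direct median was 0.31 to 0.32 and the chain median 0.31 to 0.58. A share of 16.7% passed the test, 5 features, all higher, against 3.75% of all features. Atp5md (chromosome 19), a small subunit of the ATP synthase, had the largest of these differences, 2.88 (SE 0.49, 7.37-fold, limma adjusted p = 0.0572). Its ratios were 2.47 for BALB 2 over BL6 2, -1.08 for BL6 1 over DBA 2, -2.05 for DBA 2 over BALB 1 and 3.004 for DBA 1 over BL6 1, which gave 1.51 direct and 5.06 chain.

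Ndufa4, a subunit first assigned to complex I and now to cytochrome oxidase, was 1.44 higher (1.05 direct, 2.14 chain). Cycs, cytochrome c, was 1.12 higher, Atp5pb, a subunit of the ATP synthase stalk, 0.74 and Sdha, the flavoprotein of succinate dehydrogenase, 0.56. Atp5b and Atp5a1, the catalytic core of the ATP synthase, were at 0.80 (adjusted p = 0.106) and 0.69 (adjusted p = 0.135). At the low end were Atp5g1 with -0.43 and Atp5k with -0.38, not called. Without BALB 1 the list's fitted median was 0.11 in place of 0.39, and 1 feature was called.

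The list of the citric acid cycle and mitochondrial carriers had 4 of 24 features called higher (16.7%), Slc25a4, Vdac1, Vdac3 and Got1, and 0 lower, with 0 called without BALB 1. Vdac1, the main pore of the outer membrane, was 1.12 higher (0.92 direct, 1.57 chain, limma adjusted p = 0.0572), and its relative Vdac3 0.70 (0.66 and 0.84). Got1, an aminotransferase of the malate-aspartate shuttle, was 0.75 higher. In both estimates 15 features were higher and 2 lower, and the 16.7% called compares with 3.75% of all features. Mdh2, malate dehydrogenase of the mitochondria, was at -0.36, not called.

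Glycolysis and glycogen had 4 of 31 features called higher (12.9%), and 0 without BALB 1. They were Phka1, a regulatory subunit of phosphorylase kinase (1.25, with 0.77 direct and 2.09 chain), Eno3, the muscle enolase (0.71), Eno2, the neuronal enolase (0.73), and Aldoc, the aldolase of brain (0.66). Only 1 of 3 Phka1 features and 1 of 2 Eno3 features were called. The list's 12.9% compares with 3.75% of all features. The list's direct median was -0.03 and its chain median 0.62, so that the animal pairs differed for the list as a whole. Gapdh, measured as the mean of 80 control features, was 0.03 direct and 0.14 chain, with a fitted difference of 0.07 (adjusted p = 0.788). Fatty acid oxidation had 0 of 14 features called by limma (2 at an unadjusted p under 0.05), with Acadl, a dehydrogenase of long-chain acids, at 0.62 (adjusted p = 0.137) and Cd36, a fatty acid transporter, at 0.53 (adjusted p = 0.15).

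**Figure D4:**
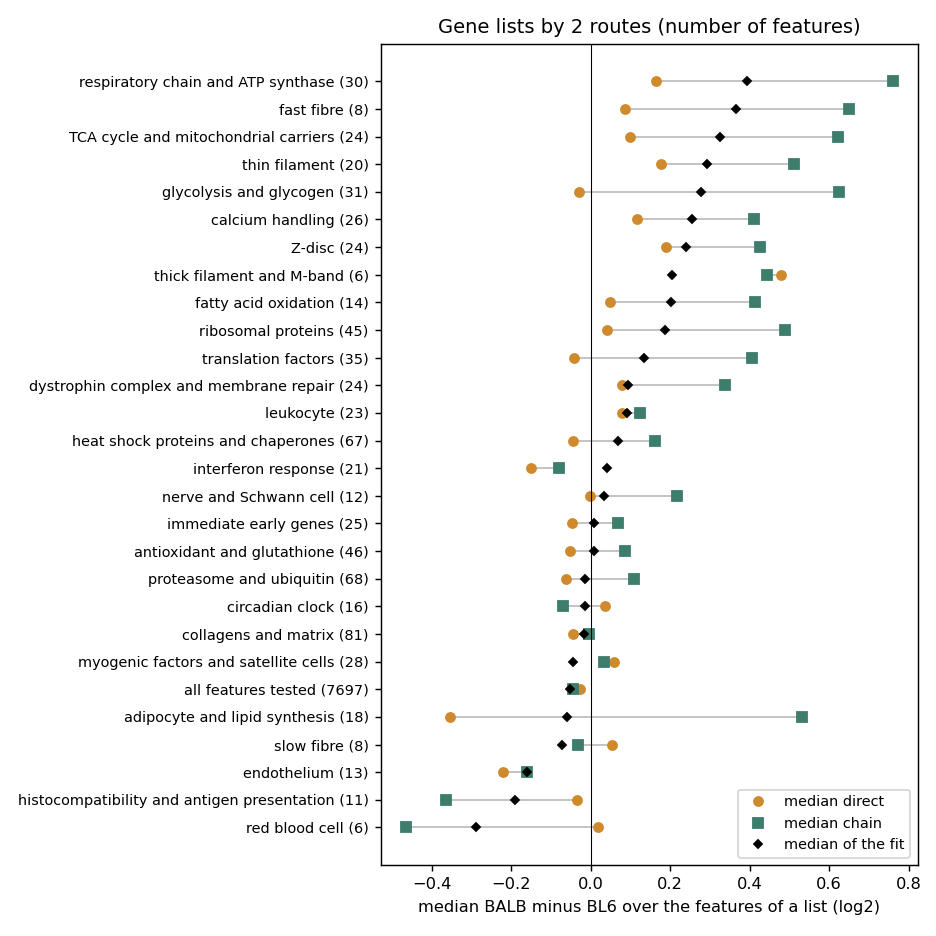
Median BALB minus BL6 (x axis, log2) of the gene lists, with orange circles for the direct estimate, green squares for the chain and black diamonds for the fit of 8 arrays, and the number of features of each list in brackets. The respiratory chain list lies at 0.16, 0.76 and 0.39, and the adipocyte and lipid synthesis list spans -0.35 direct to 0.53 chain.

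Outside muscle structure and energy supply, Tpt1, Eif4g2 and Eef2 were called higher among 35 features of translation factors, and Rps12, Rpl7, Rps3a1 and Rpl8 among 45 of ribosomal proteins. These shares are 8.57% and 8.89%, against 3.75% of all features, and without BALB 1 the calls were 1 and 0. Chaperones had 4 of 67 features called higher (5.97%), Dnaja2, Dnajc2, Tcp1 and Hspa9, a share near that of all features. The matrix list, likewise near it, had 5 of 81 called higher (6.17%), among them the fibrillar collagens Col3a1 (1.14) and Col1a1 (0.72), and Col11a1 lower (-0.62), while the second Col11a1 feature was at -0.35 and not called. Among 46 antioxidant features Park7, Glrx3, Sod1 and Msrb3 were higher and Gclc, the catalytic subunit for glutathione synthesis, was lower by a log2 difference of -0.57 (limma adjusted p = 0.0828). These shares are 8.70% and 2.17%, against 3.75% and 0.767% of all features. The proteasome and ubiquitin list had 2 of 68 called, Usp13 and Psma3, a share of 2.94% that is below the 3.75% of all features.

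Of 28 features of myogenic factors 3 were called higher (10.7%), and 0 without BALB 1. Over all features 3.75% were called higher. H19, an imprinted noncoding RNA, was higher by 1.18 (0.82 direct, 1.62 chain, limma adjusted p = 0.0572). Mef2c, a transcription factor of muscle genes, was higher by 0.90, and Mstn, myostatin, an inhibitor of muscle growth, by 0.56 (adjusted p = 0.0913 and 0.0932). Myod1, Myog and Myf6 were at 0.37, 0.27 and 0.51 and were not called. Of 16 clock features Bhlhe40, a transcriptional repressor, was called (0.92, limma adjusted p = 0.0579), which is 6.25% against 3.75% of all features. Of 25 immediate early features 0 were called by limma (5 at an unadjusted p under 0.05).

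Genes of fat cells and of lipid synthesis differed in opposite directions in the animal pairs. None of the 18 features was called (limma, 0 higher and 0 lower, 2 at an unadjusted p under 0.05), and the smallest adjusted p was 0.179, for Apoe. In 12 of the 18 the direct estimate was below 0 and the chain estimate above 0, against 25.3% of all features, and 0 were higher in both. The medians were -0.35 direct and 0.53 chain. With the mean of the 8 arrays as the dye effect the same opposition was found in 8 features, with either loop in 9, and the medians kept their signs. With the mean, the smaller and the larger loop 1272, 1522 and 1466 of all 7697 features were opposed in this way. With these dye effects 3, 1 and 2 features of the list were higher in both estimates.

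Scd1 and Fasn, the desaturase and the synthase of fatty acids, were the extremes. For Fasn the ratios were -2.99 for BALB 2 over BL6 2, 0.18 for BL6 1 over DBA 2, -1.71 for DBA 2 over BALB 1 and 0.80 for DBA 1 over BL6 1. BALB 2 was thus well below BL6 2, whereas BALB 1 was above DBA 2. The direct estimate was -3.48 (spots -3.39 and -3.53) and the chain estimate 2.51 (spots 2.65 and 2.35). For Scd1 the ratios were -2.20, 0.88, -1.79 and 1.501 on the same arrays, with estimates of -3.39 and 3.29. The fitted differences were -0.74 (SE 1.04) and -0.43 (SE 1.09), and the spots of a feature lay much closer together than the animal pairs did.

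Under the other dye estimates Fasn stayed between -3.05 and -2.89 direct and between 1.33 and 1.66 chain, and Scd1 between -2.65 and -2.39 direct and between 1.29 and 1.82 chain. Car3, a carbonic anhydrase abundant in fat and in slow muscle, had -1.39 direct and 1.48 chain. Acaca, the carboxylase that supplies Fasn, had -0.85 and 1.83, and Gpd1, a glycerol phosphate dehydrogenase, -0.71 and 1.78. Fabp4, the fatty acid binding protein of fat cells, had the highest chain estimate of the list, 4.02, and a direct estimate of -0.80 that turned to 0.15 with the mean of the 8 arrays as the dye effect and to 0.20 with the larger loop. Adipoq and Lep, hormones of fat cells, showed little of this, with -0.23 and -0.00 direct and 0.37 and -0.55 chain.

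**Figure D5:**
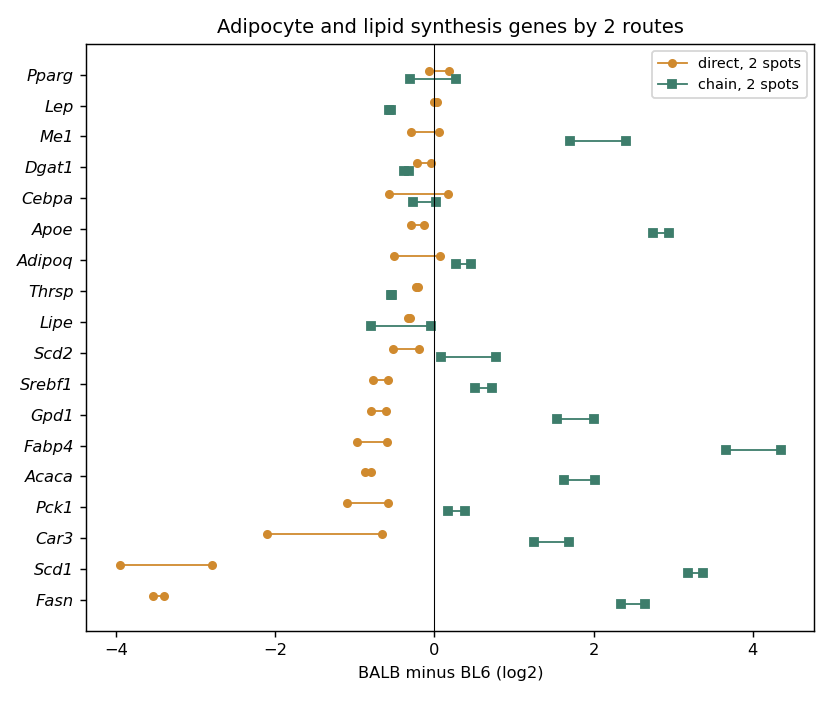
Direct (orange circles) and chain (green squares) estimates of BALB minus BL6 (x axis, log2), 1 point per spot, for the 18 features of the adipocyte and lipid synthesis list, ordered by the direct estimate. The direct spots of Fasn and Scd1 lie at -2.80 or lower and their chain spots at 2.35 or higher, while Pparg, Lep and Dgat1 lie near 0 in the direct estimate.

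Other features were chosen for opposite estimates. That opposition was smaller with other dye effects, and absent in several features with the smaller loop. The choice was made with the first dye effect, so part of such a decrease follows from the choice itself. Zfp119a, a zinc finger gene, had -1.48 direct and 1.92 chain, and Tnfrsf11a, the receptor RANK, -1.15 and 1.84. In the other direction were Icosl, a ligand of T cell costimulation (1.29 direct, -1.92 chain), Qk, an RNA-binding protein (1.14, -1.41), Cxcl11, a chemokine (1.01, -1.18), Thap11 (1.10, -0.996) and Aff4 (1.12, -0.98). With the smaller loop as the dye effect the direct and chain estimates were -0.27 and -0.49 for Zfp119a, 0.07 and -0.59 for Tnfrsf11a, 0.25 and 0.15 for Icosl, 0.04 and 0.76 for Cxcl11 and 0.38 and 0.50 for Aff4. Qk and Thap11 kept opposite signs with each dye effect, at 0.47 and -0.07 and at 0.72 and -0.24 with that loop. With the larger loop the others kept opposite signs too. Their estimates were -0.73 and 0.43 for Zfp119a, -0.50 and 0.55 for Tnfrsf11a and 0.43 and -0.20 for Icosl. For Cxcl11 they were 0.47 and -0.10, and for Aff4 0.77 and -0.27. With the mean of the 8 arrays Zfp119a, Tnfrsf11a and Icosl kept opposite signs, and Cxcl11 and Aff4 did not. Several of these features had unequal spots. The chain spots were 3.37 and 0.44 for Zfp119a, 3.20 and 0.46 for Tnfrsf11a and -3.64 and -0.22 for Icosl, whereas those of Qk were -1.75 and -1.08 beside direct spots of 1.09 and 1.22. A second Qk feature ran the other way, with -0.56 direct and 1.63 chain, and a second Aff4 feature was at -0.12 and 0.30.

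The lists of other cell types were described in the same way. The 6 features of red blood cells had a median of 0.02 direct and -0.47 chain, the 13 of endothelium -0.22 and -0.16, and the 23 of leukocytes 0.08 and 0.13. At an unadjusted p under 0.05 limma found 1, 3 and 8 features of these lists. The leukocyte list alone of these had calls, 2 of 23 (8.70%, against 3.75% of all features) and 0 without BALB 1. They were the features annotated as Itgax (1.29) and C1qa (0.65), both higher. Pecam1, Kdr, Nos3 and Tek of the endothelium list were at -0.53, -0.30, -0.32 and -0.22, none of them called. They do not stand for the list, whose 13 features ran from -0.53 to 0.15 in the fit. Of these, 5 were above 0 in the direct estimate and 5 in the chain estimate. The adipocyte list moved with the animal pairs as given above, and its part in the differences of the muscle genes was not tested. Of 12 nerve and Schwann cell features and of 11 histocompatibility features 0 were called by limma (3 and 2 at an unadjusted p under 0.05). Of 21 interferon features 1 was called, Irf9, which is 4.76% against 0.767% of all features called lower. It was lower by a log2 difference of -0.56, with direct spots of 0.48 and -1.84.

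Genes at which laboratory stocks of BALB or BL6 are known to carry variants were not called by limma (0 of 4, 1 at an unadjusted p under 0.05). Tyr, the pigment enzyme that is inactive in albino BALB mice, was at 0.19, Prkdc and Cdkn2a were at 0.15 and -0.01, and Nnt, a mitochondrial transhydrogenase, was at -0.30 (adjusted p = 0.224). Over the 12 blocks of the array 3.29% to 5.71% of features were called. The higher calls numbered 18 to 35 in a block, whereas 40 of the 59 lower calls lay in the neighbouring blocks 4 to 7 and the other 8 blocks held 0 to 8 each. Of the 348 features called, 76 (21.8%) had duplicate spots more than 1 apart on at least 1 of the 4 arrays, against 963 of all features tested (12.5%).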

How the data were processed

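The authors labelled total RNA with Cy5 or Cy3 by reverse transcription, hybridised it to spotted 65-mer oligonucleotides, quantified the spots (GenePix Pro 3.0), corrected them for local background and applied variance stabilisation (VSN). What was deposited is 1 ratio on the natural log scale for each of 15552 spots, Cy5 relative to Cy3, a base and direction taken from the method and the sample titles. Spot brightness and flags were not analysed here, so the number of arrays limits the precision. Duplicate spots lie 648 places apart in the table.

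Ratios were converted to log2 and centred on each array's median, and 80 control features of Gapdh were averaged to 1. Names came from the array's annotation and the RefSeq table of GRCm38.p6. Of 7776 features 6831 had 1 symbol, 7 several (left unnamed) and 938 none.

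The arrays labelled BL6 2 against CBA 1 and BALB 1 against CBA 2 held identical values at 15552 spots and were left out. The remaining 8 were fitted in limma 3.58.1 (R 4.3.3) with strain and dye terms and an animal to array variance ratio of 0.446 estimated by restricted maximum likelihood, which left 3 residual degrees of freedom. The Benjamini-Hochberg adjustment ran over 7697 features, and those under 0.10 were called. The 2 samples per strain are labelled as separate animals. The steps were tested on simulated data. Plots used matplotlib 3.10.9.

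The comparison, the gene lists and the tests were chosen with earlier results of these data known. Named were the 10 features with the smallest p in each direction and the same sign in both estimates, the 5 most opposed features in each direction, up to 4 members per list by p, and genes named in the study's text. Other list members and Shkbp1 were named after their values were seen. Alternatives concerned centring, array spread, spots, the dye effect, the arrays used, the shared spread, the threshold and leaving out each animal.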

Additional observations from a re-analysis of the deposited data

How the results depend on the processing

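The count of calls stayed within 1.5 times of that reported without centring (385 called), without features of unequal spots (361 of 6734), with robust eBayes (350) and with the shared values entered as BL6 2 against CBA 1 (369). The numbers called, with those higher and lower in BALB, were 170 (157 and 13) with equal array spreads, 184 (145 and 39) with the second spot alone, 3 (3 and 0) with the first spot alone, 221 (206 and 15) with only the 4 arrays, 249 (211 and 38) with arrays as independent, 179 (161 and 18) with the identical values taken for BALB 1 and CBA 2 and 11 (11 and 0) at an FDR of 5%. limma called 0 without a dye term (0 and 0, 487 features at an unadjusted p under 0.05), 0 with all 10 arrays (0 and 0, 1106) and 0 with the ordinary test (0 and 0, 1145). Leaving out 1 animal in turn gave 12 to 3615 calls, 12 to 1695 higher and 0 to 1920 lower. The fits without BALB 2, BL6 1 or DBA 1 took their residual spread from the arrays of CBA against BL10 alone. The fit without DBA 2 could not be made, since the dye effect is then not separable from strain.

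The correlation of the direct and the chain estimate, and the numbers of features 2-fold higher and lower in both, were -0.0758, 28 and 1 with the first spot alone, -0.0311, 23 and 2 with the second, 0.0682, 9 and 0 without features of unequal spots, 0.0347, 6 and 0 with equal spreads, -0.583, 20 and 1 with no dye effect subtracted, 0.475, 29 and 0 with the mean of the 8 arrays as the dye effect, 0.241, 19 and 2 with the smaller loop and 0.347, 21 and 0 with the larger loop. Each loop holds a copy of the identical values, so strain differences fail to cancel in at least 1 loop. They do not fully cancel in the mean of the 8 arrays either. The r of -0.289 without a strain difference holds only for the dye effect reported. A dye effect from the direct and chain arrays alone makes the estimates equal, so no value was computed.

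Among 39 named features, Qk, Thap11, Aff4 and Car3 changed sign without BALB 2 and Zfp119a without DBA 1, each a feature of opposed estimates. Those fits took their residual spread from the arrays of CBA against BL10 alone, so only the values are given. Over the animals left out Qk ranged from -1.41 to 0.69, Thap11 from -0.996 to 0.64, Aff4 from -0.98 to 0.63, Car3 from -0.65 to 1.48 and Zfp119a from -0.67 to 1.92. For the other changes the cause was not tested.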
